A study of Mus musculus with 2 samples.

Results

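The genes described here encode the machinery that moves proteins into, through and out of the secretory and endosomal system. They were taken by gene symbol: every probe whose symbol in the platform annotation starts with Sec plus a digit, Copa, Copb, Cope, Copg or Copz, Tmed, Trappc, Vps plus a digit, Snx plus a digit, Stx plus a digit, or Galnt. This gave 87 probes for 86 genes, of 10208 named genes on the array. A single gene, Galnt17, had more than 1 probe. The rule reads symbols only, though it was proposed with earlier results of these data known. A few of the genes it caught do other work. Vps72 encodes a chromatin protein that loads a histone variant, and the Sec14-like genes encode lipid-binding proteins.

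Expression was measured in 1F9, a mouse lymphoma line that came from a thymoma of an animal lacking E2A, the gene for the helix-loop-helix factors E12 and E47. The E47-ER culture had received a retrovirus with E47 joined to an oestrogen receptor part, and the bHLH-ER culture one with the bHLH region of E47 without its N-terminal activation domain. Both cultures are E2A -/-, were given 4-hydroxytamoxifen (4-OHT) for 6 hours at 1 day after infection, and were selected with beads for the human CD25 that both viruses encode. Each construct has 1 Cy3 array of 1 culture of a single line, so the differences have no replicates behind them and no p-value can be given. The group of each array comes from its title, since the longer description of the control sample also mentions the E47 fusion. No array of uninfected or untreated cells was analysed here, so the construct that moved a gene cannot be named.

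Proteins bound for the membrane or the outside enter the endoplasmic reticulum (ER) through the Sec61 channel and leave it in vesicles coated with COPII. COPI vesicles return escaped proteins to the ER, tethering complexes such as TRAPP catch arriving vesicles, and SNARE proteins, among them the syntaxins, fuse them with their target. In the Golgi, GalNAc transferases start mucin-type O-glycans on serine and threonine. Sorting nexins and the Vps proteins of retromer, HOPS, CORVET, GARP and ESCRT sort membrane proteins in endosomes. In thymocytes this system carries T cell receptor chains, cytokine receptors and adhesion molecules to the surface and back.

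The values are the authors' scaled intensities, with array medians of 0.939 on the E47-ER array and 0.950 on the bHLH-ER array. A log2 difference is the log2 intensity with E47-ER minus that with bHLH-ER, after each array was centred on its median. Folds include this centring. Genes with a mean level at or above the median of all probes, an intensity of about 1.03, are called measured: 5563 named genes in all. Their median log2 difference was 0.11, and it was -0.0023 when the 75th percentiles of the arrays were set equal, a shift of -0.11 that applies to every gene. Positions relative to this median are therefore given beside the signs. The only repeats within the arrays are genes with several probes: in 39 such genes the log2 differences of probes of one gene had a pooled SD of 0.21, which holds no spread between cultures. The T lineage markers Cd3e, Cd3g, Cd3d, Cd247, Ptcra, Rag1, Rag2, Lck, Thy1, Cd8b1 and Dntt were listed to check the cell type. All 10 with a named probe were measured, with a summed intensity of 445 with E47-ER and 287 with bHLH-ER. They did not move alike: 9 had differences above 0, from 0.06 for Cd247 to 2.09 for Ptcra, and Cd3e was at -0.47. With equal 75th percentiles 8 were above 0. Of 6 plasma cell markers, 2 had a named probe and 1 was measured, Irf4, with a summed intensity of 2.57 with E47-ER and 2.44 with bHLH-ER. Of 5 named myeloid markers 1 was measured, Itgam, with 1.44 with E47-ER and 0.866 with bHLH-ER. Its control intensity lay under the level of about 1.03, so Itgam was measured only through the E47-ER array. The intensities of the 5 summed to 1.82 with E47-ER and 1.19 with bHLH-ER, and Lyz2 and Mpo were at or under 0.106 on both arrays. Of 5 named B lineage markers 3 were measured, and the 5 had summed intensities of 15.2 with E47-ER and 17.7 with bHLH-ER. Among the 3, Pax5 had 0.927 with E47-ER, under the level of about 1.03, and 1.17 with bHLH-ER. Fibroblast markers summed to 21.9 with E47-ER and 31.7 with bHLH-ER. Most of this was Vim, with 17.3 with E47-ER and 27.6 with bHLH-ER. The other named ones, Sparc, Col1a2 and Dcn, went the other way. Of these only Sparc was measured, with 4.00 with E47-ER and 3.55 with bHLH-ER. Neither named erythroid marker was measured. The part of other cells in the results was not tested.

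Most secretory and vesicle transport genes had small positive differences, with either scaling of the arrays, and a few stood further out. Of the 86 genes, 85 were above 0 on both arrays and 69 were measured. Galnt2 was the only measured member past 2-fold (2.06-fold higher), whereas 1.35% of all measured genes were higher by that much and 0.27% lower. Galnt2, Galnt11 and Stx7 were at least 1.5-fold higher and no measured member was 1.5-fold lower, against 5.41% and 1.24% of all measured genes. These shares of the members lie near those of all measured genes. The remaining 66 measured members lay within 1.5-fold. Their direction was less even: 55 of the 69 had a difference above 0 (79.7%), against 66.7% of all measured genes, and 47 lay above the median of all measured genes. The median of the 69 was 0.21, which is 0.10 above that of all measured genes, and their interquartile range was 0.06 to 0.32. With 1 array per construct this distance could not be tested. In RNA pooled from the bead-selected cells of a culture, a change in every cell cannot be told apart from a change in some of them.

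**Figure D1:**
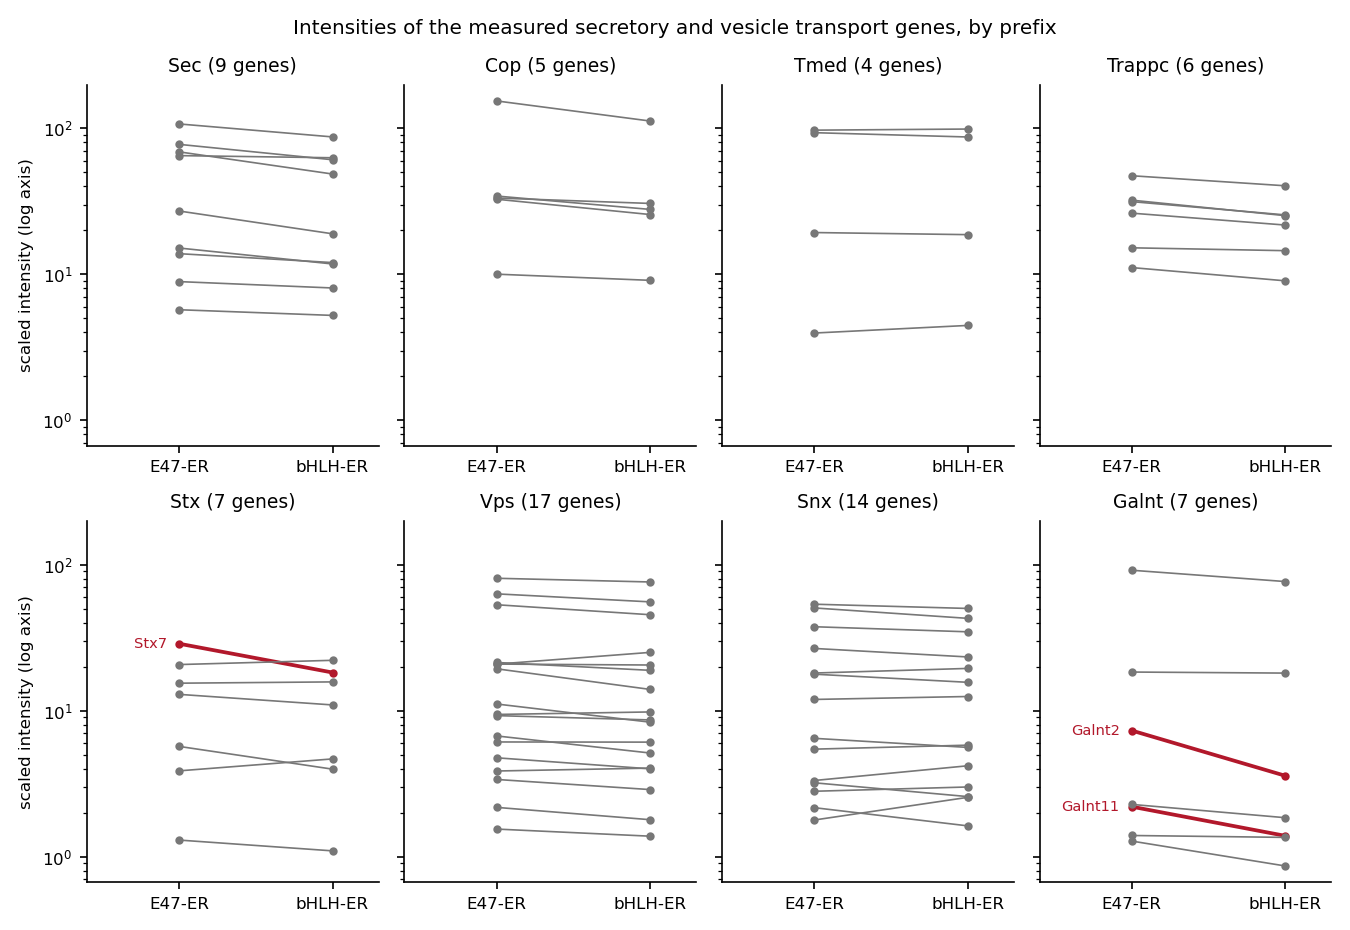
Scaled intensity (log axis) of each of the 69 measured genes on the E47-ER array (left) and the bHLH-ER array (right), with 1 panel per symbol prefix and a line joining the values of a gene. The lines of Galnt2, Galnt11 and Stx7, which are named, are the only ones past 1.5-fold, while those of the Tmed panel are nearly flat.

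At the ER membrane, every measured gene of the translocation channel had a positive difference, as did 66.7% of all measured genes. Sec61b, a small subunit of the channel, had an intensity of 27.1 with E47-ER and 18.9 with bHLH-ER, 1.45-fold higher. Sec61g, the other small subunit, had 107 with E47-ER and 87.2 with bHLH-ER, a difference of 0.31. The channel-forming subunit Sec61a1 had 13.8 with E47-ER and 12.0 with bHLH-ER, a difference of 0.22. Sec61b thus lay at the 93.2nd percentile of all measured genes and Sec61a1 at the 67.6th. Sec61a2, a second form of the channel subunit, had a difference of 0.16. Sec11a, which encodes a catalytic subunit of signal peptidase, had nearly equal intensities of 64.9 with E47-ER and 62.8 with bHLH-ER. Its difference of 0.06 was the smallest of the 9 measured Sec genes and turned to the negative side with equal 75th percentiles.

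The coats of vesicles between ER and Golgi stood above the middle of all genes. In COPII, Sec13, a protein of the outer cage that is also part of the nuclear pore, had 68.9 with E47-ER and 48.5 with bHLH-ER, 1.43-fold higher. Sec23b, which belongs to the inner coat and activates the GTPase of Sar1, had 15.1 with E47-ER and 11.8 with bHLH-ER, a difference of 0.38. Its paralog Sec23a was below the level limit, with 0.655 with E47-ER and 0.827 with bHLH-ER. At that level the Sec23a probe gives no usable direction. Sec16a, which organises ER exit sites, had a difference of 0.14, and Sec16b was near 0 on both arrays.

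All 5 measured COPI genes had positive differences and lay above the median of all measured genes. Cope (epsilon-COP) was the highest of them, with 154 with E47-ER and 112 with bHLH-ER, 1.39-fold higher. Copg1 and Copg2 encode alternative gamma subunits of the coat. Copg1 had 32.6 with E47-ER and 25.6 with bHLH-ER, a difference of 0.36, and Copg2 had 10.003 with E47-ER and 9.08 with bHLH-ER, a difference of 0.15. Copb1 (beta-COP) had a difference of 0.32 and Copz1 (zeta-COP) one of 0.14. The other zeta subunit, Copz2, was near 0 on both arrays. The median of the 5 was 0.32, or 0.21 above that of all measured genes.

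The p24 proteins, cargo receptors that travel in the same vesicles, did not share this shift. Tmed2 had 97.0 with E47-ER and 98.7 with bHLH-ER, and Tmed9 had 93.2 with E47-ER and 87.1 with bHLH-ER. Tmed4 had a difference of 0.06. Tmed3 was the lowest, with 3.95 with E47-ER and 4.46 with bHLH-ER, a difference of -0.16. The median of the 4 measured Tmed genes was 0.03, which is -0.08 relative to all measured genes. It turned to the negative side under equal 75th percentiles, so the group has no settled sign. Tmed6 and Tmed11 were below the limit.

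The TRAPP tether, a complex that catches vesicles at the Golgi and activates Rab1, lay close together on the positive side, apart from Trappc3, which turned negative with equal 75th percentiles. Trappc2l had 32.1 with E47-ER and 25.2 with bHLH-ER, a difference of 0.37. Trappc13, Trappc6a, Trappc5 and Trappc4 followed at 0.32, 0.32, 0.28 and 0.24. Trappc3, a core subunit, was the lowest at 0.08, with 15.2 with E47-ER and 14.5 with bHLH-ER. So 5 of 6 measured Trappc genes lay above the median of all measured genes, between 0.24 and 0.37. Trappc2 was below the limit, with 0.062 with E47-ER and 0.029 with bHLH-ER.

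**Figure D2:**
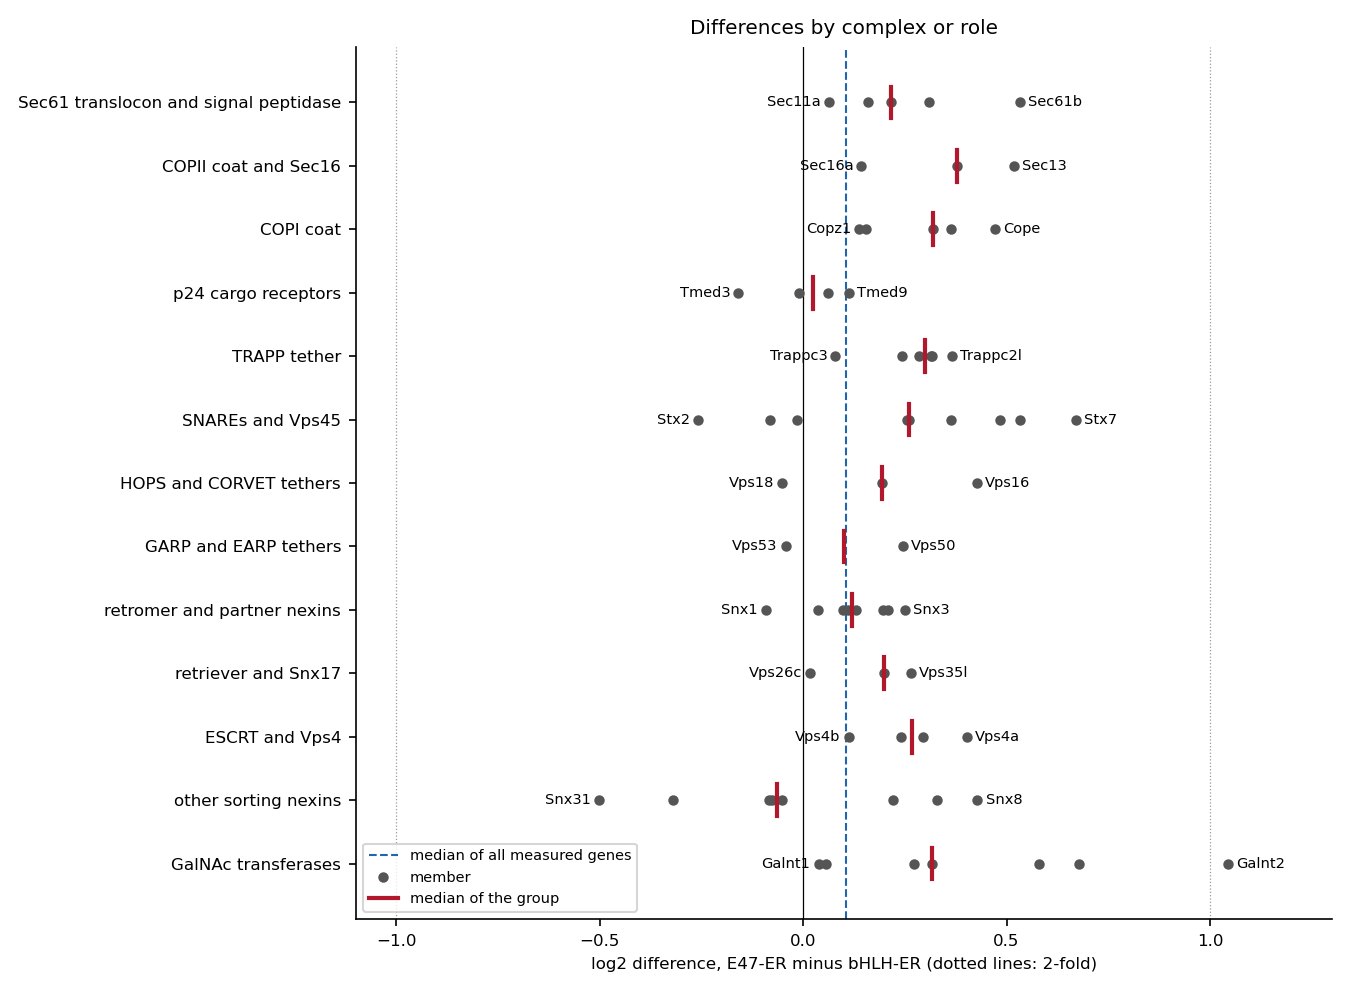
Log2 difference (E47-ER minus bHLH-ER) of each measured gene except Vps72 and Vps13a, with the genes set out by complex or role. Points are genes, red bars are group medians and the dashed line is the median of all measured genes (0.11). Most group medians lie to its right, among them those of COPI, TRAPP and ESCRT. To its left lie the p24 median of 0.03, which changes sign with the scaling, that of GARP and EARP (0.10) and that of other sorting nexins (-0.06).

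Fusion proteins differed widely among themselves. Stx7 (Entrez gene 53331), a syntaxin of late endosomes and lysosomes, was the highest, with 28.8 with E47-ER and 18.3 with bHLH-ER, 1.59-fold higher. Its usual partner Stx8 had 15.4 with E47-ER and 15.7 with bHLH-ER. The 2 genes of this pair thus differed by 0.69 in their log2 difference. The other partners in the fusion complex of late endosomes are Vti1b, which had a difference of 0.23, and Vamp8, which had 4.99 with E47-ER and 6.33 with bHLH-ER. Stx6, a syntaxin of the trans-Golgi network and early endosomes, had 5.70 with E47-ER and 3.98 with bHLH-ER, 1.45-fold higher. Vps45, which encodes a regulator that binds endosomal syntaxins, had 19.4 with E47-ER and 14.0 with bHLH-ER, 1.40-fold higher. Sec22b, a SNARE of ER to Golgi traffic, had a difference of 0.36, while Stx5a, its Golgi partner, had one of 0.25. Stx4a and Stx2, syntaxins of the plasma membrane, had differences of -0.08 and -0.26. That of Stx4a is smaller than the pooled probe SD of 0.21, and the endosomal Stx8 was also below 0, at -0.01. A link to location was not tested. For Stx2 the intensities were 3.87 with E47-ER and 4.68 with bHLH-ER. Stx17, of autophagosomes, had a difference of 0.26, and Stx1a, known from nerve terminals, was below the limit.

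E47 belongs to a class of factors that bind the E-box, CANNTG. For that reason the promoter windows of the syntaxins at both ends of the range are shown, each from 250 bases before to 50 after an annotated start, 5′ to 3′, with CANNTG in capitals. The sequences are those of RefSeq, build GRCm38.p6. They are not the probes of the array.
Stx7, chr10:24149039-24149338, plus strand: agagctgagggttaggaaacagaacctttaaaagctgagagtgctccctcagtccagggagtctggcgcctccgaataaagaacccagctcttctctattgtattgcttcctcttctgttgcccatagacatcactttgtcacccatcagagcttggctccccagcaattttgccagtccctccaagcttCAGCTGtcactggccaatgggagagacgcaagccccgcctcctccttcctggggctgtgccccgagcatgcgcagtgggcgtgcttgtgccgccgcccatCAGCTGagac
Stx6, chr1:155158453-155158752, plus strand: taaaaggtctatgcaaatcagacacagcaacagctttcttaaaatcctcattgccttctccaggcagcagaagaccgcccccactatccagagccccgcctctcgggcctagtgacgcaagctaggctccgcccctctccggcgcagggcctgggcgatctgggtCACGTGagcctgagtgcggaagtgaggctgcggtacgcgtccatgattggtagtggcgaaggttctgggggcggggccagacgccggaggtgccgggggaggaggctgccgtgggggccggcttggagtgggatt
Stx2, chr5:129008523-129008822, minus strand: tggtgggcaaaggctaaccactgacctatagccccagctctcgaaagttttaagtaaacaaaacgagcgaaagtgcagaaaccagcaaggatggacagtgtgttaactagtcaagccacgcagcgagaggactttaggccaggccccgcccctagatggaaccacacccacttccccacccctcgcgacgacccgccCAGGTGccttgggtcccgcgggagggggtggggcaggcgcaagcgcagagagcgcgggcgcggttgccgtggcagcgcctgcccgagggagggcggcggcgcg

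The Stx7 window holds 2 copies of CAGCTG, whose first bases lie at -60 and 40 relative to the start, and the window of a second annotated Stx7 start overlaps it. The Stx6 window has CACGTG at -85 and that of Stx2 has CAGGTG at -53, so E-boxes stand at genes of both directions. The window of a second annotated Stx2 start holds no CANNTG, and neither do both windows of Galnt11 and that of Galnt7, which are among the members with the largest differences. Galnt7 was measured only through the E47-ER array, and its window enters each count for the largest differences below. In the whole table, 74.99% of 27025 genes hold CANNTG in a window, and 67.3% of the 4572 measured named genes with a window do. Among 55 measured members with a window 37 did (67.3%), and among the 9 with a window of the 10 members with the largest difference, 5 did. Of the measured members with a difference below 0, 9 had a window and 5 of these held it. CAGCTG, counted within CANNTG, was found in 6 of the 55 (10.9%), against 17.1% of measured named genes and 18.3% of all genes. CAGGTG or its reverse CACCTG, also counted within CANNTG, was found in 11 of the 55, against 20.3% of measured named genes and 22.6% of all. It was in 0 of the 9 members with the largest differences and in 3 of the 9 below 0. For CAGCTG these counts were 2 of 9 and 3 of 9. CCACG or its reverse CGTGG, part of a known ER stress element and able to overlap a CANNTG match, was found in 27 of the 55 (49.1%), against 51.0% of measured named genes and 35.5% of all. This motif was in 3 of the 9 with the largest differences and in 3 of the 9 below 0. These are matches of letters and show no binding.

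Of the 17 measured genes with the Vps prefix, 14 had positive differences (82.4%, against 66.7% of all measured genes). With equal 75th percentiles, where the median of all measured genes was -0.0023, 11 of the 17 did. The 17 include the chromatin gene Vps72 and the lipid transfer gene Vps13a. Values within one complex varied, by 0.48 between Vps16 and Vps18 and by 0.29 between Vps50 and Vps53. Each of these genes has 1 probe, and probes of one gene had a pooled SD of 0.21. Whether subunits moved apart was not tested. In the HOPS and CORVET tethers, the core subunit Vps16 had 11.1 with E47-ER and 8.34 with bHLH-ER, 1.35-fold higher. Vps18, another core subunit, had 3.86 with E47-ER and 4.04 with bHLH-ER, a difference of -0.05. Vps41, found in HOPS, lay between them at 0.19. In the tethers of the trans-Golgi and recycling endosomes, Vps50 had a difference of 0.24 and Vps53 one of -0.04.

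The ESCRT machinery buds vesicles into endosomes for degradation of receptors. Its 4 measured genes with the Vps prefix lay above the median of all measured genes. ESCRT genes outside the prefix, from the lists described below, lay on both sides of it. Chmp5, Chmp4b, Snf8, Tsg101, Chmp7 and Hgs were above this median. Stam, Stam2 and Chmp1b were below it, at 0.07, -0.04 and -0.05. Vps4a, an ATPase that takes ESCRT apart, had 6.72 with E47-ER and 5.13 with bHLH-ER, 1.32-fold higher. Its paralog Vps4b had 9.25 with E47-ER and 8.65 with bHLH-ER, a difference of 0.11, close to the median of all measured genes. Vps25 of ESCRT-II had a difference of 0.29 and Vps28 of ESCRT-I one of 0.24. Vps37a, also of ESCRT-I, had 0.934 with E47-ER and 0.854 with bHLH-ER and was below the limit.

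Retromer, which returns cargo from endosomes to the Golgi and the surface, stood at the middle of all genes. Vps35, its scaffold, had 63.2 with E47-ER and 55.6 with bHLH-ER, a difference of 0.20. Vps29 had a difference of 0.10 and Vps26a one of 0.04. The nexins that work with it ranged from -0.09 for Snx1 to 0.25 for Snx3, with Snx2, Snx5 and Snx6 at 0.13, 0.11 and 0.21. The median of these 8 genes was 0.12. Retriever, a relative of retromer, was similar, with Vps35l at 0.27, its cargo adaptor Snx17 at 0.20 and Vps26c at 0.02. Vps13a, which transfers lipids between membranes, had a difference of 0.18, while Vps13c was near 0 on both arrays.

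The nexins outside retromer and retriever held the 2 lowest values among the measured genes. Snx31, a relative of Snx17, had 1.78 with E47-ER and 2.55 with bHLH-ER, 1.42-fold lower and the lowest measured member. With equal 75th percentiles its difference of -0.50 became -0.61, past 1.5-fold. Snx20, which binds the selectin ligand PSGL-1, had 3.33 with E47-ER and 4.20 with bHLH-ER, 1.25-fold lower. Snx31 and Snx20 lay at the 1.85th and 5.37th percentiles of all measured genes. At the other end, Snx8 had 2.17 with E47-ER and 1.63 with bHLH-ER, a difference of 0.43. Snx11 had a difference of 0.33 and Snx18 one of 0.22, whereas Snx12, Snx24 and Snx14 were at -0.05, -0.08 and -0.08. The 8 genes had a median of -0.06, with 5 of them below 0. Above 0 were 37.5% of the 8, against 66.7% of all measured genes. Vps72, the chromatin gene caught by its symbol, had 20.8 with E47-ER and 25.1 with bHLH-ER, a difference of -0.25.

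GalNAc transferases held the largest differences. Galnt2 (Entrez gene 108148) had 7.31 with E47-ER and 3.58 with bHLH-ER. At 2.06-fold it just passed the 2-fold rule, and with equal 75th percentiles its log2 difference was 0.94, below it. Galnt11 (Entrez gene 231050) had 2.20 with E47-ER and 1.39 with bHLH-ER, 1.60-fold higher, a difference of 0.68 that was 0.57 with equal 75th percentiles and so under 1.5-fold. For Stx7 the same scaling gave 0.56. Galnt7, which extends glycopeptides that already carry GalNAc, had 1.28 with E47-ER and 0.864 with bHLH-ER. Its control intensity lay under the level limit, so it was measured only through the E47-ER array, and its 1.496-fold difference of 0.58 lay just short of the 1.5-fold rule.

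The other measured GalNAc transferases differed less between the arrays. Galnt12 had 91.6 with E47-ER and 76.7 with bHLH-ER, a difference of 0.27. Galnt1 had 18.4 with E47-ER and 18.1 with bHLH-ER, so that its log2 difference lay 1.01 below that of Galnt2. Galnt10 had 2.28 with E47-ER and 1.85 with bHLH-ER, a difference of 0.32. Galnt6 had a difference of 0.06. All 7 measured Galnt genes were on the positive side, as were 66.7% of all measured genes. Above the median of all measured genes were 5 of the 7. With equal 75th percentiles 5 were positive, since Galnt1 and Galnt6 turned negative. The 2 probes of Galnt17 had 1.40 and 0.776 with E47-ER, against 1.24 and 0.718 with bHLH-ER. Their mean lay just under the level limit, as Galnt7 lay just above it.

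Of the 86 genes, 17 gave no measured value. Sec14l4 had no value on either array. The intensities of the other 16, averaged over probes, did not exceed 1.04 with E47-ER or 0.944 with bHLH-ER, and no difference is drawn from them. Ratios are unstable there: the robust SD of the log2 difference was 2.33 in the dimmest of 20 level bins, against 0.18 to 0.28 in the bins above the limit. Among these dim genes Copz2, Galntl5 and Trappc2 had ratios past 2-fold. With all 85 genes, 66 had a positive difference, with a median of 0.20 against 0.07 over all 9942 named genes positive on both arrays.

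Other genes of the same pathways, in 9 lists, gave similar values. Of 158 list genes with a named probe and a positive intensity on both arrays, 132 were measured. Their median was 0.18, with 113 above 0 (85.6%, against 66.7% of all measured genes) and 88 above the median of all measured genes. At least 1.5-fold higher were 4 of them, against 5.41% of all measured genes, and none was 1.5-fold lower. Man2a1, a Golgi mannosidase that trims N-glycans, had 52.5 with E47-ER and 24.8 with bHLH-ER, 2.14-fold higher and the only one past 2-fold. With equal 75th percentiles its log2 difference of 1.10 became 0.99, below 2-fold. Magt1, a subunit of the oligosaccharyltransferase, which puts N-glycans on new proteins, had 14.7 with E47-ER and 9.06 with bHLH-ER, 1.64-fold higher. C1galt1, the enzyme that extends the GalNAc set by the Galnt enzymes, had 4.21 with E47-ER and 2.74 with bHLH-ER, 1.56-fold higher. Of these 4 genes, Man2a1 and C1galt1 act on glycans, as Galnt2 and Galnt11 do, and Magt1 belongs to a complex that does. All 4 were picked for passing 1.5-fold. The other measured oligosaccharyltransferase genes ran from -0.16 for Tusc3 to 0.30 for Rpn1. The 17 measured genes of the list of other Golgi glycan enzymes had a median of 0.10, which became -0.01 with equal 75th percentiles. Of these 17, 7 lay above the median of all measured genes. The chaperone of C1galt1, C1galt1c1, had a difference of 0.08, and Mgat4b was the lowest at -0.44. Chmp5, an ESCRT-III protein, had 61.0 with E47-ER and 40.8 with bHLH-ER, 1.51-fold higher. With equal 75th percentiles Magt1 stayed past 1.5-fold at 0.60, while C1galt1 and Chmp5 were below it at 0.53 and 0.49.

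The lists of translocon partners, ER exit partners and SNARE partners had the highest medians of the 9. The partners of the translocon, such as the signal recognition particle, had a median of 0.29. Of their 13 measured genes 12 were above 0 (92.3%, against 66.7% of all measured genes) and 10 above the median of all measured genes. Among them Spcs2, of signal peptidase, had 103 with E47-ER and 70.2 with bHLH-ER, a difference of 0.56. Srp14 stood at 0.52 and Hspa5, the main ER chaperone, at 0.50. SNARE partners had a median of 0.25, led by Vamp2 at 0.55, while Vamp8 stood at -0.33. Of the 18 measured, 17 were above 0 (94.4%, against 66.7% of all measured genes), or 14 with equal 75th percentiles. Above the median of all measured genes were 14. COPII and ER exit partners had one of 0.26, led by Mcfd2 at 0.46, a cargo receptor subunit. The KDEL receptors, which return ER proteins, did not share this: Kdelr2 and Kdelr3 stood at 0.01 and 0.02. Oligosaccharyltransferase and clathrin adaptor genes each had medians of 0.16, Golgi tethers and endosomal Rab and ESCRT genes ones of 0.20, and the COPI and Arf list one of 0.13. In the last, Arfgap2, a regulator of the COPI coat, stood at 0.55 and Arl1 at -0.05. With equal 75th percentiles these medians were 0.05 for oligosaccharyltransferase and clathrin adaptor genes, 0.09 for Golgi tethers and endosomal genes and 0.02 for the COPI and Arf list. The lowest clathrin adaptor was Ap3m2 at -0.42, and Dnm2, the dynamin that cuts vesicles off, was the highest of that list at 0.42.

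**Figure D3:**
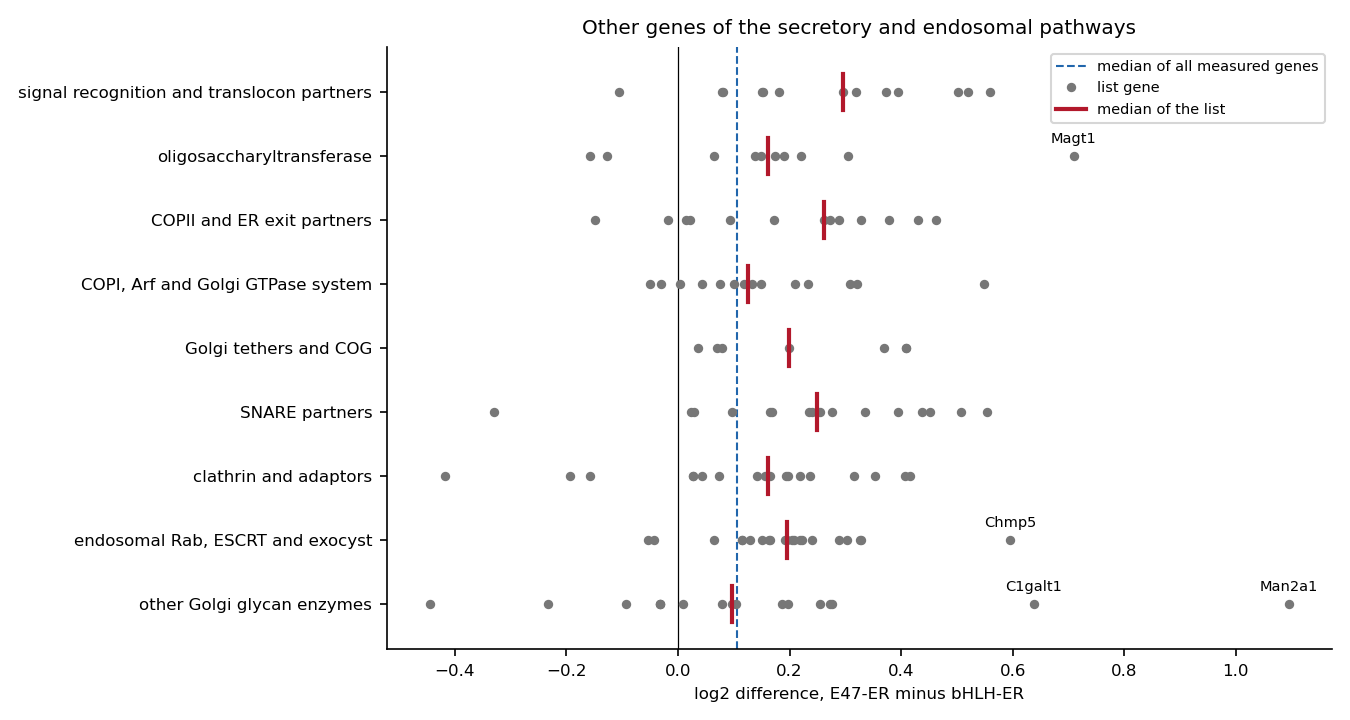
Log2 difference (E47-ER minus bHLH-ER) of the 132 measured genes of 9 pathway lists outside the symbol prefixes. Points are genes, red bars are list medians and the dashed line is the median of all measured genes (0.11); the 4 named genes are at least 1.5-fold higher.

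Signs depended on the scaling of the arrays. Equal 75th percentiles move every gene by the same amount, so that 47 rather than 55 of the 69 members were above 0, with a median of 0.10, and positions relative to all genes cannot change. The same scaling changed the 1.5-fold calls over all measured genes, given as higher and lower, from 301 and 69 to 184 and 110, and the 2-fold calls from 75 and 15 to 52 and 24. The distance between the medians of the members and of all measured genes was 0.10 with quantile normalization and 0.09 with loess on level. It was 0.07 with the stricter level filter, at the 75th percentile, with 45 members left, and 0.12 with no filter.

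**Figure D4:**
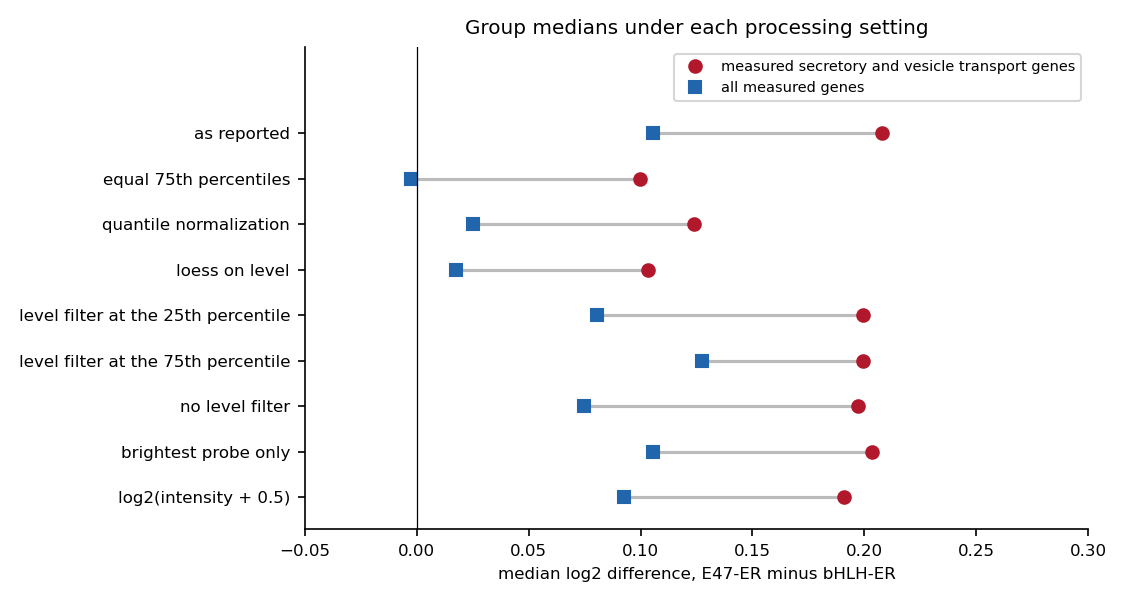
Median log2 difference (E47-ER minus bHLH-ER) of the measured secretory and vesicle transport genes (circles) and of all measured genes (squares) under each processing setting. The circles lie to the right of the squares in each setting, by 0.07 to 0.12, while the squares run from -0.0023 to 0.13.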

How the data were processed

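The deposited intensities are linear values for 20289 probes, at most 1 for each probe on each array, since the probe of Sec14l4 has none. The values had been background-subtracted and scaled before deposit, as negative values and array medians near 1 show. The sources used here do not name the method. Detection calls were not used. Probes had to have a value above 0 on both arrays, which removed 668 and left 19621. From the log2 values of an array their median was subtracted, and probes of one gene were averaged. Symbols come from the platform annotation: 10349 probes have 1 symbol, 0 have several and 9940 are unnamed here. All 10349 Entrez gene IDs matched RefSeq (GRCm38.p6), which changed 0 symbols. With 1 array per construct no test was run, the number of arrays limits the precision, and called means at least 2-fold or, separately, 1.5-fold.

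The prefix rule, the lists and the tests were chosen with earlier results of these data known, and the grouping into complexes was made after the values were seen. Named are members past 1.5-fold, the extremes of each prefix and partners in a complex; of each list, members past 1.5-fold or the largest difference. Further examples were picked with their values in view. Alternatives were another scaling (75th percentiles, quantile, loess with a span of 0.3), level filters at the 25th and 75th percentile or none, the brightest probe, current symbols, a pseudocount of 0.5, and, added later, leaving out Galnt7. The steps were tested on simulated arrays, with Python 3.11.15, pandas 2.3.3 and statsmodels 0.14.6.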

Additional observations from a re-analysis of the deposited data

How the results depend on the processing

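No paired analysis was possible because each construct has 1 array, and no replicate could be left out. The number of members at least 2-fold higher was 1 as reported and 0 with equal 75th percentiles, quantile normalization, loess on level, the level filter at the 75th percentile and the pseudocount of 0.5, and it was 2 with no level filter. No member was 2-fold lower as reported, and 2 were with no level filter. The number at least 1.5-fold higher was 3, and became 1 with equal 75th percentiles or the 75th percentile filter and 6 with no filter. It stayed 3 with loess, but with Galnt7 in place of Stx7. Quantile normalization gave 2, without Stx7, and the pseudocount gave 2, without Galnt11. The number 1.5-fold lower was 0, and became 1 with equal 75th percentiles and 2 with no filter. With no filter the added genes are dim ones, where ratios are unstable. Among the lists, the 1 endosomal gene past 1.5-fold (Chmp5) became 0 with equal 75th percentiles, quantile normalization, loess and the pseudocount. The 2 genes among the other Golgi glycan enzymes (Man2a1 and C1galt1) became 1 with equal 75th percentiles, quantile normalization, loess, the 75th percentile filter and the pseudocount, and 5 higher and 2 lower with no filter. Clathrin and adaptor genes had 1 higher and 1 lower with no filter. Beyond the filters' own loss or gain of genes and the shift of -0.11 with equal 75th percentiles, the cause was not tested. The median of the members ran from 0.10 to 0.21, that of Snx from 0.003 to 0.13 and that of Tmed from -0.09 to 0.09. With the 75th percentile filter the Galnt median fell to 0.15, from 2 genes, against 0.32 as reported, and the Stx median to 0.12, from 4 genes, against 0.25. Relative to all measured genes these are 0.03 and -0.01. With equal 75th percentiles they were 0.21 and 0.15. List medians were lower by 0.11 with that scaling, which put the one for Golgi glycan enzymes at -0.01. The median without Galnt7 was 0.20 for the members and 0.29 for the Galnt prefix. Galnt2 ran from 0.94 to 1.04, Galnt11 from 0.52 to 0.68 and Stx7 from 0.55 to 0.67 over these alternatives. With 1 array per construct, the effect of E47 cannot be told apart from what else differed between the 2 cultures or hybridizations.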
